A study of Mus musculus with 2 samples.

Results

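The histone genes described here were chosen by symbol from a microarray study of the RNA that co-precipitates with NANOS2, an RNA-binding protein of male fetal germ cells. Every probe whose symbol began with Hist1h to Hist4h, H2af, H3f3 or H1f was taken, which gave 66 probes of 48 genes among 41174 probes on the array. Of these, 44 probes of 36 genes carry the Hist stem of the clustered, replication-dependent genes, and 22 probes of 12 genes carry the other stems, those of the variant genes. A probe was compared if the scanner software had called it detected, that is well above background, in both replicates of the FLAG IP, of the input, or of both. This left 61 probes (40 clustered, 21 variant) of 46 genes (34 clustered, 12 variant) among 15266 genes in all.

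Both groups came from gonads of male MCH mouse embryos at embryonic day 14.5. All embryos carried a transgene in which the Nanos2 enhancer and 3'UTR flank a 3xFLAG-tagged Nanos2. The FLAG IP group holds 2 arrays of RNA recovered with Anti-FLAG M2-Agarose, and the input group holds 2 arrays of RNA from the same kind of gonad without an antibody. The study calls its samples biological duplicates, and says no more about which embryos were pooled. A precipitate from gonads without the transgene, which would give the background of the beads, was not analysed here. RNA of each sample (0.20 µg) was amplified and labelled with Cy3, and hybridised alone to an Agilent array.

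Histones package DNA: pairs of H2A, H2B, H3 and H4 form the nucleosome core, and H1 binds the linker between cores. The clustered genes are transcribed mainly in S phase, and their mRNAs typically end in a stem-loop bound by SLBP in place of a poly(A) tail. The variant genes lie outside the clusters, are expressed also outside S phase, and mostly give polyadenylated mRNAs. In the fetal testis, male germ cells enter a mitotic arrest around this age while Sertoli cells go on dividing. The labelling kit primes from poly(A) tails, so a probe for a clustered gene reads only transcripts that are primed in this way, in both groups.

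Levels are given as scaled signals, in multiples of the 75th percentile of each array's own spots, and differences as log2 fold changes of FLAG IP over input with their standard errors (2 arrays per group). A scaled signal is a level relative to the other spots of its array, and neither an amount nor a share of the RNA. In whole gonads, fewer cells of a type and less RNA per cell cannot be told apart. The first FLAG IP array stood apart in brightness. Its 75th percentile was 55.7 intensity units, against 608 on the second FLAG IP array and 1026 and 1038 on the input arrays. Spots well above background made up 42.7% and 65.4% of all non-control spots on the FLAG IP arrays and 66.0% and 70.2% on the input arrays. The lowest signal called well above background was 0.147 times the 75th percentile on the first FLAG IP array and 0.0160 on the second, against 0.0143 and 0.00932 on the input arrays. A member that neither FLAG IP array detected well above background has only a bound there.

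Most histone genes had lower scaled signals in the FLAG IP than in the input. The median log2 fold change was -2.13 over the 34 clustered genes, a ratio of 0.228, and -1.50 over the 12 variant genes, a ratio of 0.354. Over all genes the median was 0.07, a ratio of 1.05. With limma and an adjusted p below 0.05, 23 of the 34 clustered and 9 of the 12 variant genes were called lower in the FLAG IP and 0 were called higher, where 25.4% of all genes were called lower and 28.0% higher, 53.4% together. Both FLAG IP arrays lay below both input arrays for 28 clustered and 9 variant genes, as they did for 38.2% of all genes. The contrast of FLAG IP with input is part of the rule that chose these genes, so the counts and medians are a description and carry no test.

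**Figure D1:**
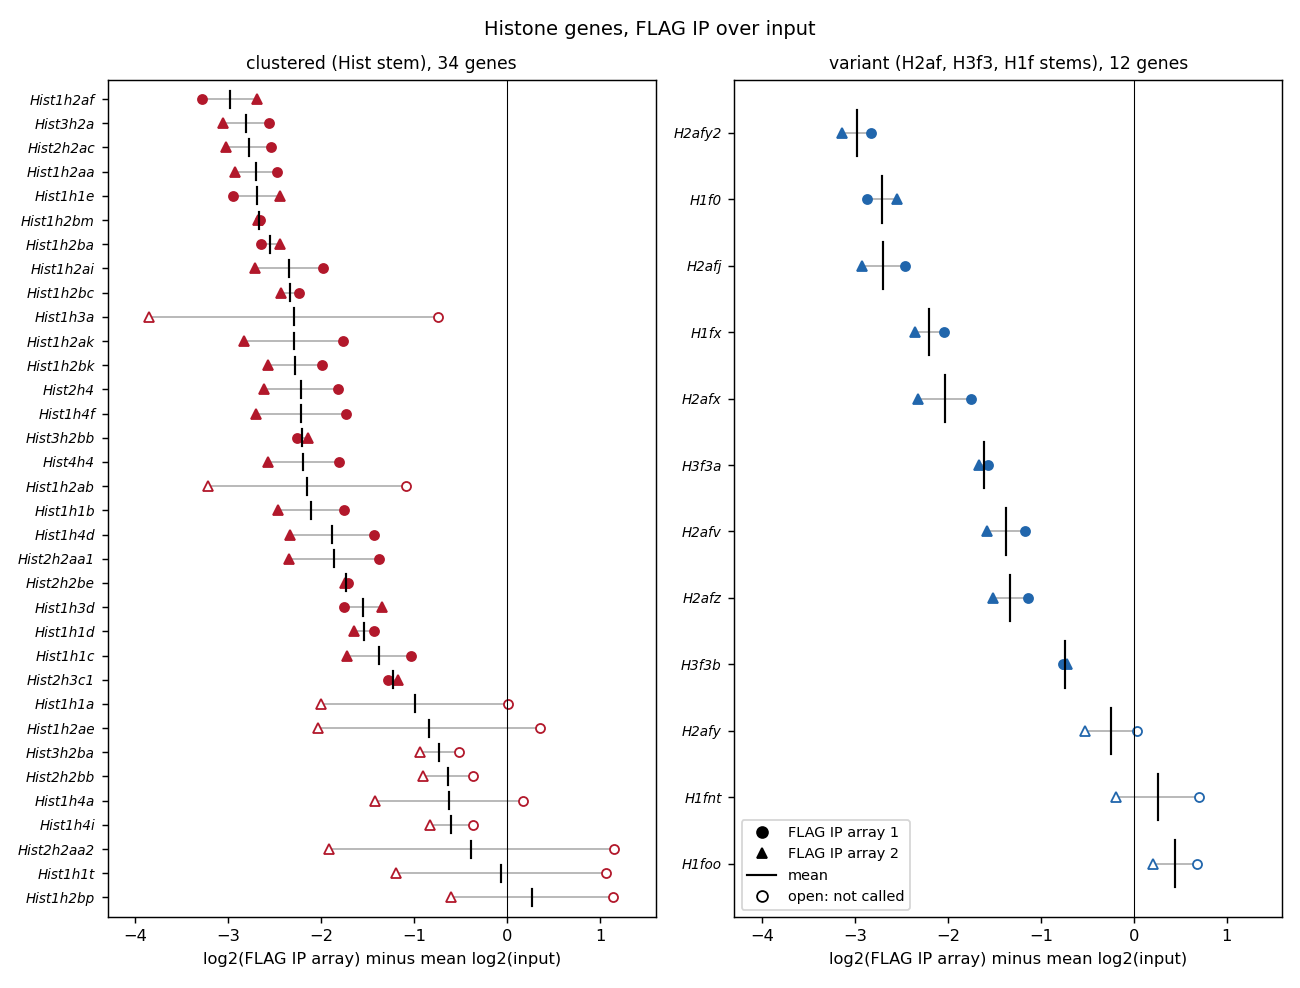
Log2 signal of each FLAG IP array minus the mean log2 input signal (horizontal axis) for the 46 histone genes compared. Each row is a gene, with clustered and variant genes apart. Circles and triangles are the first and second FLAG IP array. A short black line marks their mean, the log2 fold change, and open symbols mark genes not called. The mean lies left of 0 for 43 of 46 genes and is lowest for Hist1h2af at -2.99.

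The 2 classes overlapped widely. Among genes well above background on all 4 arrays, 24 clustered genes ran from -2.99 to -0.60 on the log2 scale and 10 variant genes from -2.71 to 0.45. The first FLAG IP array alone gave medians of -1.72 for the clustered and -1.37 for the variant genes, and the second gave -2.39 and -1.63. The clustered median minus the variant median was -0.64, and it was 0.06 after another background correction (normexp), so its direction depends on that step. The signal was higher on the first than on the second FLAG IP array for 28 of 34 clustered and 10 of 12 variant genes, and for 57.8% of all genes.

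Among the linker histones, 4 of the 6 clustered genes were called lower, with a median of -1.46. Hist1h1e, which encodes a somatic linker histone, had scaled signals of 0.324 and 0.461 on the FLAG IP arrays and 2.80 and 2.23 on the input arrays, a log2 fold change of -2.69 ± 0.26. Hist1h1b, another somatic form, had 0.300 and 0.183 in the FLAG IP and 1.03 and 0.991 in the input, a change of -2.11 ± 0.29. Both genes were lower on either FLAG IP array than on either input array, and the precipitates of Hist1h1e differed from each other by less than the gap to the input. Hist1h1c followed at -1.38 ± 0.29 and Hist1h1d at -1.54 ± 0.18, the last of them well above background on 1 FLAG IP array only. The input signals of Hist1h1d were 0.121 and 0.108. Both lay under the detection limit of the first FLAG IP array, 0.147, so that array cannot show the gene to be lower. Its other probe was well above background on neither FLAG IP array and was not called, at -0.96 ± 0.38. Under normexp Hist1h1d turned to 0.51, and neither Hist1h1c nor Hist1h1d was called. Hist1h1a overlapped between the groups, at -0.996 ± 0.73, and its signal on the first FLAG IP array was 0.169 against 0.0420 on the second.

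The variant linker histones were divided. H1f0, the linker histone of differentiated and resting cells, had 0.719 and 0.904 in the FLAG IP and 5.51 and 5.06 in the input, a log2 fold change of -2.71 ± 0.20. H1fx, a divergent somatic linker histone, had 0.242 and 0.195 in the FLAG IP and 1.0 and 0.996 in the input, a change of -2.20 ± 0.19. Both were called lower, and the input arrays agreed more closely than the FLAG IP arrays for each. H1foo, the oocyte linker histone, went the other way, with 0.539 and 0.388 in the FLAG IP and 0.324 and 0.348 in the input. It was the one member of the 46 whose FLAG IP arrays both exceeded both input arrays, but at 0.45 ± 0.23 it did not pass the test.

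The H2A genes held the 4 lowest log2 fold changes of all members, through the probe that stood for each gene. Other probes of H3f3a lay lower still, at -3.48 and -3.49. Of the 10 clustered H2A genes 7 were called lower, with a median of -2.32, and of the 6 variant H2A genes 5 were, with a median of -1.71. Hist1h2af had scaled signals of 12.5 and 18.9 in the FLAG IP and 131 and 113 in the input, a log2 fold change of -2.99 ± 0.27 and thus 7.92-fold lower in the FLAG IP. Hist2h2ac had 16.1 and 11.5 in the FLAG IP and 104 and 84.2 in the input, a change of -2.78 ± 0.25. Hist3h2a had 2.47 and 1.75 in the FLAG IP and 14.4 and 14.8 in the input, a change of -2.81 ± 0.23. For each of these 3 genes the higher FLAG IP array was far below the lower input array.

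Hist1h2aa, a testis form of H2A, had 23.3 and 17.1 in the FLAG IP and 139.7 and 121 in the input, a log2 fold change of -2.70 ± 0.23. H2afj, a variant close in sequence to the clustered H2A proteins, had 20.2 and 14.6 in the FLAG IP and 119 and 104 in the input, a change of -2.70 ± 0.24. The bright probes of Hist1h2af, Hist1h2aa, Hist2h2ac and H2afj thus gave similar signals and similar folds. Coding sequences of H2A genes are nearly identical, and probe sequences were not used here, so a probe may read several copies and these values may not be independent of each other. Hist1h2ak followed with 3.04 and 1.45 in the FLAG IP and 11.3 and 9.43 in the input, at -2.29 ± 0.41, and Hist1h2ai stood at -2.35 ± 0.32.

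Among the variants of H2A with roles of their own, H2afx, H2afz and H2afv were all called lower. H2afx encodes the H2A that is phosphorylated at DNA breaks and in meiotic chromosomes. It had 12.7 and 8.59 in the FLAG IP and 45.8 and 40.2 in the input, a log2 fold change of -2.04 ± 0.26. H2afz and H2afv encode the 2 forms of H2A.Z, found around transcription start sites. H2afz had 28.3 and 21.7 in the FLAG IP and 63.9 and 60.7 in the input, a change of -1.33 ± 0.21. H2afv had 64.0 and 48.0 in the FLAG IP and 145 and 143 in the input, a change of -1.38 ± 0.21. The pair of H2A.Z genes thus lay within each other's standard errors, and no array of 1 group reached the range of the other. After quantile normalization they stood at -0.34 (H2afv) and -0.59 (H2afz), and neither was called. Both calls also ended without either input array.

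The macroH2A genes encode proteins with a large extra domain that are found on the inactive X chromosome. H2afy2 had 0.0884 and 0.0710 in the FLAG IP and 0.618 and 0.633 in the input, a log2 fold change of -2.98 ± 0.19, although 1 of the FLAG IP arrays did not detect it well above background. Under normexp it stood at -1.17 and was not called. H2afy, through its brightest probe, had 4.77 and 3.25 in the FLAG IP and 4.72 and 4.63 in the input, a change of -0.25 ± 0.25 with overlapping groups. Its 2 other probes were called lower, at -0.69 and -2.82, and the mean of its probes was called lower at -1.25.

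Of the 9 clustered H2B genes 6 were called lower, with a median of -2.20. Hist1h2bm had 0.338 and 0.332 in the FLAG IP and 2.23 and 2.03 in the input, a log2 fold change of -2.67 ± 0.16. Hist1h2ba, the testis form of H2B, had 0.184 and 0.212 in the FLAG IP and 1.23 and 1.09 in the input, a change of -2.55 ± 0.18. Its FLAG IP arrays agreed, and 1 of them was well above background. Hist1h2bc at -2.34 ± 0.17, Hist1h2bk at -2.28 ± 0.26 and Hist3h2bb at -2.20 ± 0.17 were also lower. Hist3h2bb is annotated as a pseudogene in RefSeq. Hist3h2ba at -0.73 ± 0.22 and Hist2h2bb at -0.64 ± 0.25 did not overlap between the groups but did not pass the test.

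Of the 3 clustered H3 genes, the 2 bright ones had smaller folds than the clustered H2A median of -2.32. Hist1h3d had 14.5 and 19.2 in the FLAG IP and 49.1 and 48.4 in the input, a log2 fold change of -1.55 ± 0.21. Hist2h3c1 had 27.1 and 29.1 in the FLAG IP and 65.5 and 66.0 in the input, a change of -1.23 ± 0.16. In both genes the FLAG IP arrays lay far below the input arrays, and all 4 arrays were well above background. Both calls ended under normexp and without either input array, and Hist2h3c1 stood at -0.47 without a call after quantile normalization. The third, Hist1h3a, was dim, and not well above background on either FLAG IP array. Its measured scaled signals averaged 0.0225 in the FLAG IP and 0.0675 in the input, and it did not pass the test. Against the mean of the detection limits it was at least 1.39-fold lower in the FLAG IP. That bound rests on the second FLAG IP array. The limit of the first, 0.147, lay above both input signals, so that array cannot show the gene to be lower.

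H3f3a and H3f3b are separate genes that encode the same protein, the replacement variant H3.3, which is laid down outside replication. H3f3b had 60.5 and 62.0 in the FLAG IP and 99.3 and 105.5 in the input, a log2 fold change of -0.74 ± 0.16, the smallest among the 32 genes called lower. H3f3a had 28.0 and 26.2 in the FLAG IP and 84.1 and 82.0 in the input through its brightest probe, a change of -1.62 ± 0.16. The FLAG IP arrays agreed for the brightest probe of each gene, but lay further apart for the other H3f3a probes described below. After quantile normalization H3f3b stood at 0.27, and its call ended there, under normexp, without the filter on dim probes and without either input array. The call of H3f3a ended without either input array.

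Of the 6 clustered H4 genes 4 were called lower, with a median of -2.04. Hist1h4f had 1.89 and 0.969 in the FLAG IP and 6.69 and 5.89 in the input, a log2 fold change of -2.21 ± 0.38. Hist2h4 at -2.22 ± 0.35, Hist4h4 at -2.19 ± 0.34 and Hist1h4d at -1.89 ± 0.37 lay close to it. The H4 genes encode the same protein. The first FLAG IP array was higher than the second in each of them, by a wide gap in all but Hist1h4i. Hist1h4i had 1.06 and 0.762 in the FLAG IP and 1.40 and 1.32 in the input, at -0.60 ± 0.23. Hist1h4a had 1.99 and 0.661 in the FLAG IP and 1.94 and 1.61 in the input, at -0.63 ± 0.59, so that its groups overlapped.

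**Figure D2:**
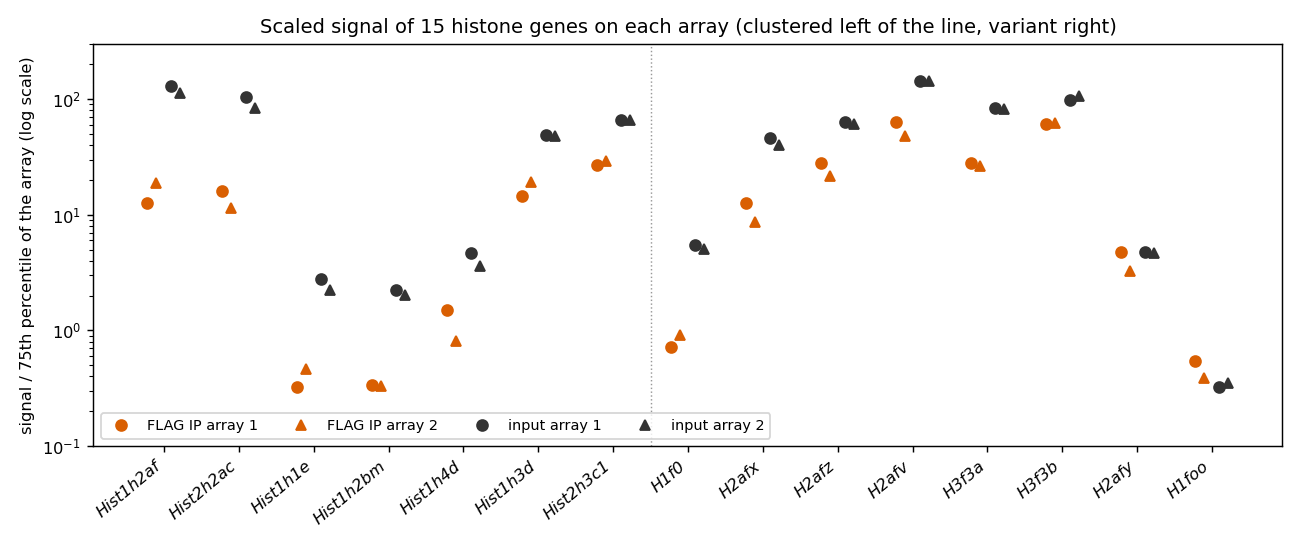
Scaled signal (vertical axis, log scale, multiples of the array's 75th percentile) on each FLAG IP and input array for selected histone genes. Each point is 1 array. The clustered genes are Hist1h2af, Hist2h2ac, Hist1h1e, Hist1h2bm, Hist1h4d, Hist1h3d and Hist2h3c1. The variant genes are H1f0, H2afx, H2afz, H2afv, H3f3a, H3f3b, H2afy and H1foo. The FLAG IP points lie below the input points for every gene shown except H2afy and H1foo. For H2afy, 4.77 on 1 FLAG IP array lies above both input arrays, and for H1foo both FLAG IP arrays do.

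By genomic cluster, the median log2 fold change was -2.16 over 23 Hist1 genes, of which 15 were called lower. It was -1.73 over 7 Hist2 genes (5 lower) and -2.20 over 3 Hist3 genes (2 lower), and the single Hist4 gene stood at -2.19.

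The 5 germ cell forms were divided. Hist1h2aa and Hist1h2ba were called lower, while Hist1h1t, H1fnt and H1foo did not pass the test. Like the other bright H2A probes, that of Hist1h2aa may read several copies, so its value may not be that of the testis form. Hist1h1t, the testis linker histone, had 0.0452 and 0.00938 in the FLAG IP and 0.0229 and 0.0203 in the input, at -0.07 ± 0.81. H1fnt, a linker histone of spermatids, had 0.0401 and 0.0216 in the FLAG IP and 0.0228 and 0.0267 in the input, at 0.26 ± 0.36. Both genes overlapped between the groups, at signals below the detection limit of the first FLAG IP array. Without the 5 germ cell forms, 21 of 31 clustered genes (median -2.11) and 9 of 10 variant genes (median -1.83) were called lower.

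Of the 14 members not called, 5 (Hist1h3a, Hist1h2ae, Hist2h2aa2, Hist1h1t and Hist1h2bp) were well above background on neither FLAG IP array. Hist1h2bp, an H2B gene, had 0.0462 and 0.0138 in the FLAG IP and 0.0242 and 0.0182 in the input, at 0.27 ± 0.65. Hist2h2aa2, an H2A gene, had 0.0414 and 0.00493 in the FLAG IP and 0.0174 and 0.0199 in the input, at -0.38 ± 1.09. In both the 2 FLAG IP arrays lay on opposite sides of the input, the first above it and the second below. Among genes well above background on all 4 arrays, 20 of 24 clustered (median -2.21) and 8 of 10 variant genes (median -1.50) were called lower. Hist1h2ac and Hist1h2be did not pass the filter through their only probes, and neither did 1 of 2 probes of Hist2h2aa2, Hist4h4 and H2afz.

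Over the whole array, the share of genes called lower was highest among those with the highest input signal. In the highest of 10 equal bins of all genes by input signal, 50.9% were called lower and the median log2 fold change was -0.83. That bin held 7 clustered and 6 variant members, all 13 of them called lower, with medians of -2.70 and -1.50. Clustered genes with input signals of 1 to 10 times the 75th percentile had a median of -2.21 with 12 of 15 called lower. In bins 6 to 9, which cover about these signals, 28.5% to 34.2% of all genes were called lower. Clustered genes under the 75th percentile had a median of -1.27 with 4 of 12 called lower. The share of all genes there rose from 0.07% in bin 1 to 26.6% in bin 5. Of these 12 genes, 5 were well above background on neither FLAG IP array and 4 on 1 of them. Levels of different probes depend on the probe as well as on the transcript, so this orders signals and not transcripts.

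**Figure D3:**
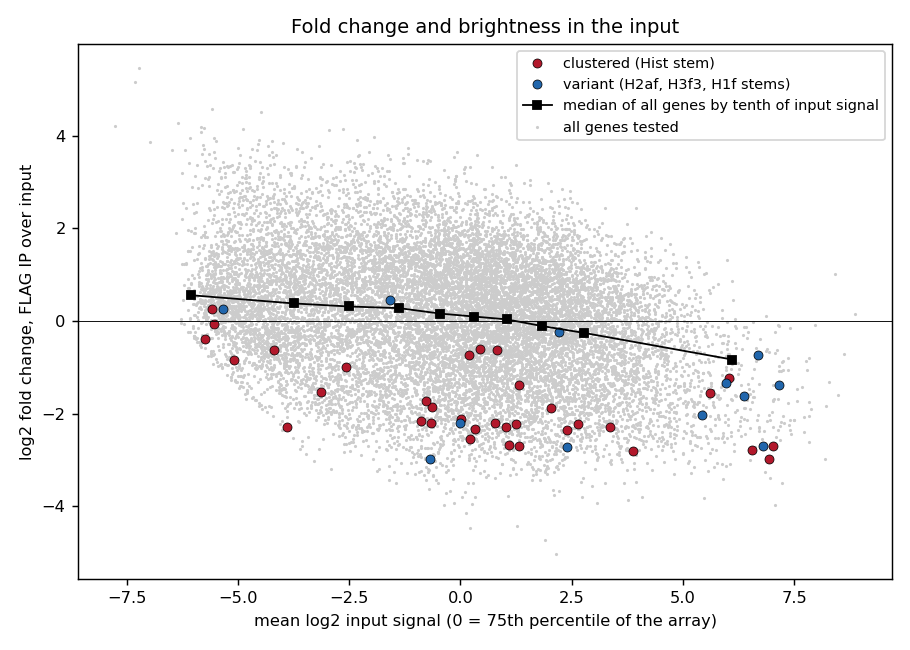
Log2 fold change of FLAG IP over input (vertical axis) against mean log2 scaled signal in the input (horizontal axis) for all 15266 genes, with clustered and variant histone genes marked and the median of each of 10 equal bins of genes drawn as a line. The line falls to -0.83 in the bin with the highest input signal, and the 13 histone genes there lie between -2.99 and -0.74.

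Probes of the same gene did not always agree. When every probe was taken on its own, 28 of 40 clustered and 16 of 21 variant probes were called lower and 0 higher, where 23.4% of all probes were called lower. The difference between the highest and lowest probe of a gene had a median of 0.66 on the log2 scale over 10 histone genes, and 0.64 over 5941 genes with several probes. H2afj had the widest gap, since its other, dim probe had 0.187 and 0.213 in the FLAG IP and 0.201 and 0.219 in the input, at -0.07 ± 0.18. The 2 other probes of H3f3a were both lower than its brightest one. One had 4.49 and 7.86 in the FLAG IP and 68.2 and 64.6 in the input, at -3.48 ± 0.33, and the other stood at -3.49 ± 0.42. The input signals of the 3 H3f3a probes were within 1.25-fold of each other, while their fold changes spanned 1.87 on the log2 scale.

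**Figure D4:**
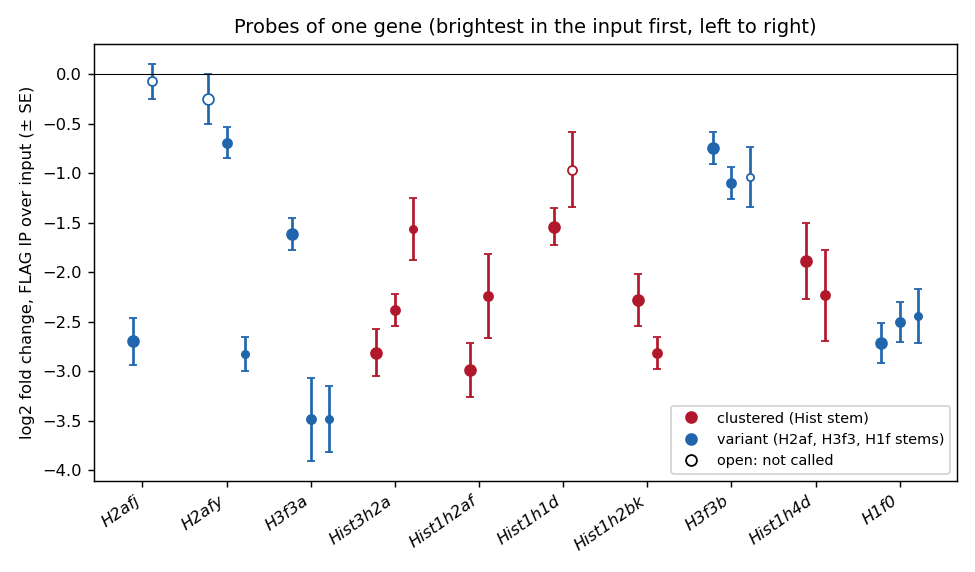
Log2 fold change of FLAG IP over input of each tested probe (points) for the 10 histone genes with several tested probes, with standard errors as bars. The probes of H1f0 lie within 0.27 of each other, and those of H2afj are 2.63 apart.

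Promoter sequence did not enter the choice of members. For this, 3 strings were searched on both strands in the 250 bases before each gene's start in RefSeq (GRCm38.p6): TATAAA of the TATA box, CCAAT of the CCAAT box, and ATTTGCAT, the octamer known from H2B promoters. None of the strings contains another. Promoters were matched for 42 of the 48 genes, 31 clustered and 11 variant. TATAAA was found in 17 clustered and 1 variant gene, or 54.8% and 9.09%, where 14.3% of 27025 genes hold it. CCAAT was found in 27 clustered and 6 variant genes (87.1% and 54.5%, against 37.5% of all genes), and all 6 H1, 11 H2A and 7 H2B genes had it, but 2 of 5 H4 and 1 of 2 H3 genes. The octamer was found in 11 clustered genes and 1 variant gene (35.5% and 9.09%, against 1.81% of all genes), and these were 5 of 7 H2B and 6 of 11 H2A genes, with 0 among the H1, H3 and H4 genes. Windows of neighbouring genes on opposite strands can overlap, as those of Hist1h2aa and Hist1h2ba do. The same match can then count for an H2A and an H2B gene, so these counts are not independent. The stretches below were chosen to show these strings, in capitals, in promoters of genes described above. Each has 30 bases on the strand of its gene.
Hist1h1b, chr13:21780636-21780665 (minus strand): agcaccggcttaTATAAAccaggagcctga
Hist1h1d, chr13:23554994-23555023 (plus strand): agcttctctctaTATAAAcccagagcctgc
Hist1h1e, chr13:23622568-23622597 (minus strand): agctccgccctaTATAAAcgggcgggcgca
Hist2h2ac, chr3:96220905-96220934 (minus strand): cctaggagcgccTATAAAggccttagagac
Hist1h2bm, chr13:21722008-21722037 (plus strand): ctctcgtctctATTTGCATaacagcgtgta
Hist1h2bk, chr13:22035780-22035809 (plus strand): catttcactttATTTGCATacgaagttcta
Hist2h2bb, chr3:96269641-96269670 (plus strand): tgtgaaacctcATTTGCATacaagctctat
H2afz, chr3:137864395-137864424 (plus strand): atcccccacgcgCCAATcatcgctcgagct
H3f3b, chr11:116024654-116024683 (minus strand): cctgaacaccggCCAATcaggaaacggccc
In the 4 clustered H1 genes that hold it, the TATA string begins 26 to 33 bases before the start. The octamer stretches come from Hist1h2bm and Hist1h2bk, both called lower, and from Hist2h2bb, which was not. A match describes these letters and is not evidence of binding.

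The mRNAs of proteins that act on histone mRNA included both higher and lower ones. Of 20 listed genes for 3' end processing, decay and transcription of histone mRNA, 19 were tested, 8 were higher and 4 lower in the FLAG IP, where 28.0% of all genes were higher and 25.4% lower, and the median was 0.21. Slbp, whose protein binds the stem-loop, had 18.7 and 19.1 in the FLAG IP and 9.08 and 9.15 in the input, a log2 fold change of 1.05 ± 0.15 (limma, adjusted p = 0.00868). Both FLAG IP arrays lay above both input arrays, by about the same amount. Zfp473, a component of the U7-dependent processing machinery, rose by 1.61 ± 0.23 on the log2 scale (limma, adjusted p = 0.00782). Lsm10, a subunit of the U7 snRNP, fell by 1.35 ± 0.30 (limma, adjusted p = 0.0241), while Mtpap rose by 1.45 ± 0.40 and Mif4gd, a partner of SLBP in translation, by 1.30 ± 0.28.

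All 27 listed genes of histone chaperones and deposition factors were tested. Of these, 8 were higher and 4 lower, with a median of 0.20. The share higher was near the 28.0% of all genes, and the share lower was under their 25.4%. Daxx, a chaperone of H3.3, had 50.4 and 27.6 in the FLAG IP and 12.2 and 11.5 in the input, a log2 fold change of 1.65 ± 0.34 (limma, adjusted p = 0.0201). Znhit1, a subunit of the complex that deposits H2A.Z, fell by 2.61 ± 0.28 (limma, adjusted p = 0.00484) and was well above background on 1 FLAG IP array. Anp32e, which removes H2A.Z, fell by 1.48 ± 0.32, and Ssrp1, a subunit of the FACT complex, by 1.09 ± 0.16.

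S phase is the time at which clustered histone genes are expressed. Of 18 listed S phase genes 8 were lower and 2 higher, with a median of -0.60, where 25.4% of all genes were lower and 28.0% higher. Tyms, thymidylate synthase, had 1.28 and 1.95 in the FLAG IP and 12.2 and 11.0 in the input, a log2 fold change of -2.87 ± 0.27 (limma, adjusted p = 0.00406). Mki67, a marker of cycling cells, fell by 2.28 ± 0.19 and Ccna2, cyclin A, by 1.22 ± 0.16. Gins2, a subunit of the replicative helicase, fell by 1.15 ± 0.24, whereas Cdt1 and Ccne1 were the 2 that rose.

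Most markers of the other cells of the gonad were lower in the FLAG IP, as most histone genes were. The summed scaled signal of 4 Leydig cell markers was 14.8 and 14.0 in the FLAG IP and 109 and 98.5 in the input, and all 4 were lower. For 4 Sertoli cell markers it was 8.01 and 9.72 in the FLAG IP and 29.5 and 28.9 in the input, with 3 lower and 1 higher. The interstitial sum was 16.9 and 13.4 in the FLAG IP and 132 and 127 in the input, and the erythroid sum was 16.8 and 13.5 in the FLAG IP and 163 and 154 in the input, with all 3 markers lower in each list. Both macrophage markers tested and 2 of 3 endothelial markers were lower too. The sum of 6 germ cell markers was 99.0 and 124 in the FLAG IP and 58.4 and 59.8 in the input, with 3 higher and 0 lower. Of the listed markers, Csf1r of macrophages was not tested. Pecam1 of the endothelium was near 0, at -0.07 ± 0.16, and was not called. Among the germ cell markers, Nanos3 (-0.36 ± 0.19), Mael (0.215 ± 0.41) and Dppa4 (-0.60 ± 0.42) were not called either. The part of these cells in the histone values was not tested.

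**Figure D5:**
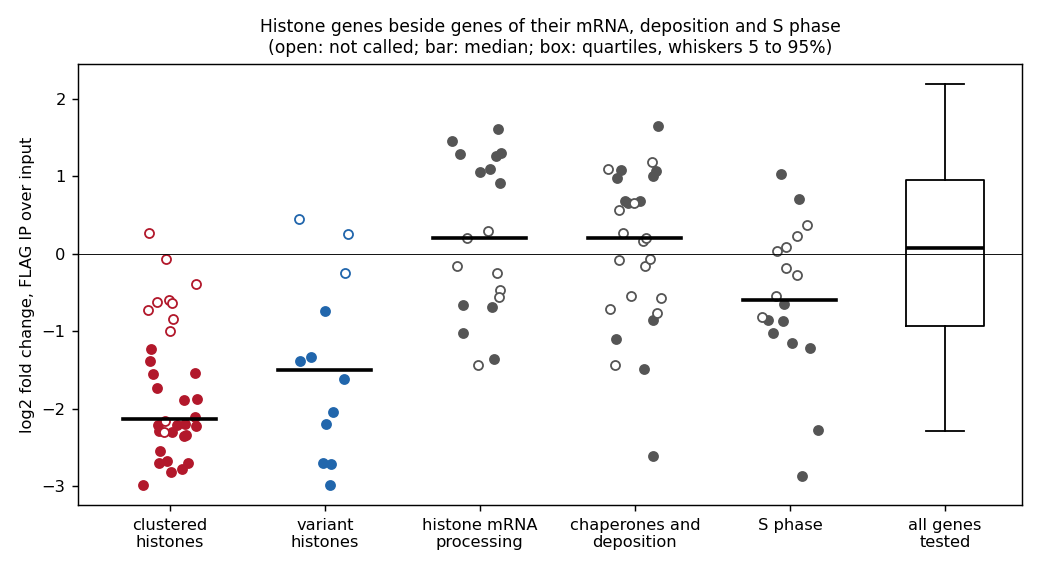
Log2 fold change of FLAG IP over input of each gene (points), with the median of each set as a bar. The sets are the clustered and variant histone genes and the lists for histone mRNA processing, chaperones and S phase. Clustered and variant histone genes have medians of -2.13 and -1.50, the processing list 0.21, the chaperone list 0.20 and the S phase list -0.60.

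The calls depended on the background correction and on the arrays kept. Of the 32 genes called lower, 18 remained called under normexp, 22 without the first input array and 23 without the second, and the variant count was 5 without either input array. Beside the genes named above, Hist1h1b, H1fx, Hist1h2ba, Hist1h2bc, Hist2h2aa1, Hist2h2be, Hist2h4 and Hist4h4 lost their calls under normexp. Hist1h1c, Hist1h1d and Hist2h2aa1 lost theirs without either input array, and Hist1h4d without the first. Leaving out a FLAG IP array tells little of the calls, because the spread then comes from the input arrays alone. The median SD over all genes was 0.30 on the log2 scale between the FLAG IP arrays and 0.06 between the input arrays. In that setting, without the second FLAG IP array, 4 clustered genes (Hist1h1t, Hist1h2ae, Hist1h2bp and Hist2h2aa2) and 2 variant genes (H1fnt and H1foo) were called higher, all with input signals under the 75th percentile.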

How the data were processed

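Signals came from 4 arrays of 1 colour, 2 FLAG IP and 2 input. Per the submitters' processing notes, spots were read with Agilent Feature Extraction 9.5. The deposited intensity values are the processed signal of each spot, background-subtracted by that software, and the deposited table of the series holds the authors' ratio of FLAG IP to input for each probe, with a p-value per probe that was not used. Other steps by the authors are not given in the sources used here.

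The log2 intensity of each spot was centred on the array's 75th percentile over 43379 non-control spots. Outlier spots (52 to 104 per array) were left out, and 0 spots were saturated. Spots of a probe were averaged, and the probe with the highest mean stood for its gene. All 4 arrays were fitted with limma 3.58.1 (R 4.3.3; lmFit, eBayes, two-sided, Benjamini-Hochberg over 15266 genes, threshold 0.05; residual df 2, prior df 2.08). The number of arrays limits the precision. A bound sets a group's mean against the detection limit, the lowest signal called well above background on each array.

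Genes were named through gene IDs (31004 probes), older symbols (309) or the file's symbol (1263), with 8598 probes unnamed. Histone genes, lists and subgroups were chosen with earlier results of these data known. All members could be named; array values are given for the 8 clustered and 8 variant genes with the highest input signal and the 6 highest and 6 lowest fold changes, and for further members picked after their values were seen. From each list the 4 largest called changes and Slbp are named. Alternatives were normexp on the median spot signal and local background (offset 50), quantile normalization, median centring, filters, probe choice, blocks for replicate and slide, and leaving out each array.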

Additional observations from a re-analysis of the deposited data

How the results depend on the processing

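Medians of both histone classes stayed below 0 under every alternative run. Normexp kept 18 of the 32 calls: 12 clustered genes were called lower, the clustered median was -1.38, the clustered minus variant difference was 0.056, Hist1h1d stood at 0.51 without a call, and 1272 genes of all were higher and 1398 lower around a median of 0.38. Quantile normalization gave a variant median of -0.98, a difference of -1.16 and 27 of 32 calls; H2afv (-0.34), H2afz (-0.59), Hist2h3c1 (-0.47), H3f3b (0.27) and Hist1h1d (-2.74) lost theirs. The all-gene median was -0.059 with median centring, 0.55 with no filter on dim probes and 0.19 over genes well above background on all 4 arrays. Taking every probe on its own gave 16 variant probes called lower. With slide as a block, which equals leaving out the input array that has a slide of its own, 5 variant genes, 1545 of all lower and 1431 higher were called; slide as a random block could not be estimated. With the replicate number as a block, 25 clustered and 8 variant genes were lower (4130 of all higher, 3875 lower) and H3f3b lost its call; same-numbered arrays deviated together with a correlation of 0.05 over 2 pairs, so the numbers are not taken to pair them. Leaving out 1 array at a time gave 17 to 33 clustered and 5 to 10 variant genes lower, 0 to 4 clustered and 0 to 2 variant genes higher, 1431 to 6845 genes of all higher and 1545 to 6212 lower, clustered medians of -2.39 to -1.72, variant medians of -1.63 to -1.37, differences of -0.77 to -0.36 and all-gene medians of -0.003 to 0.16. Hist1h1t, Hist1h2ae and Hist2h2aa2 were called higher without FLAG IP replicate 2 (1.07, 0.36 and 1.15) and lower without replicate 1 (-1.20, -2.03 and -1.92), where the spread comes from the input arrays alone. The cause of these changes was not tested. Relative to the median of all genes, clustered and variant medians were -2.20 and -1.57, -1.76 and -1.82 under normexp, and -2.14 and -0.99 under quantile normalization. Leaving out probes that name several genes was not run, since no member symbol names several.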

Other observations

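Histone genes outside the symbols used here gave further values, chosen after their signals were seen. H2ac23, named through its gene ID, had scaled signals of 24.0 and 19.1 in the FLAG IP and 143 and 123 in the input, a log2 fold change of -2.63 ± 0.21, close to the bright H2A probes. Cenpa, the centromeric H3, had 1.96 and 1.09 in the FLAG IP and 2.19 and 2.29 in the input, at -0.62 ± 0.34, and was not called. H2al1m, a short H2A form known from the testis, was called higher through 1 probe at 1.28 ± 0.26, with 0.0672 and 0.0480 in the FLAG IP and 0.0211 and 0.0260 in the input. Its signal on the first FLAG IP array lay under the 0.147 that is the lowest called well above background there. Its other probe stood at 1.99 ± 0.61 without a call. H2al2a stood at 1.19 ± 0.41 with 0.616 and 0.306 in the FLAG IP and 0.171 and 0.211 in the input, not called. H2ap stood at -0.79 ± 0.27, also not called.

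In the authors' deposited table, the ratio of FLAG IP to input was below 1 for 58 of the 61 histone probes and for 12320 of all 23283 probes tested. The authors' deposited table gave a median ratio of 0.203 for clustered probes, 0.300 for variant probes and 0.935 for all probes tested.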
